A study of Rattus norvegicus with 4 samples.

Results

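The cytosolic ribosomal protein genes encode the protein parts of the large and small ribosomal subunits. Members were the array probes whose RefSeq accession belongs to a rat gene with a symbol of Rpl or Rps plus a digit, or to Rplp0, Rplp1, Rplp2 or Rpsa. S6 kinase genes, -like genes and a gene whose protein only binds a ribosomal protein were left out. This gave 92 of 40923 probes and 63 of 25356 tested genes, of which 36 belong to the large and 27 to the small subunit. Only 6311 of the 25356 carry a gene symbol, and the others are transcripts under the array's own names. Each is counted as a gene here, so shares of all tested genes cover both kinds. The RefSeq gene table holds 78 symbols that fit the rule. The other 15 were not named on the array and are not analysed here, among them Rpl12, Rpl23a, Rpl26, Rpl27a, Rpl34, Rpl36a, Rpl37, Rpl37a, Rpl7, Rpl7a, Rps16, Rps28, Rps4y2 and Rps9.

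The samples were PC12 cells, a rat pheochromocytoma line that is known to lack working MAX, the dimerisation partner that MYC needs to bind DNA. The MAX vector group carried an expression plasmid for MAX, and the empty vector group carried an empty plasmid. Both groups had passed through nucleofection and drug selection (the agent is spelled E418 in the labels). Each group had 2 arrays, taken from cells at passages 8 and 13, and the labels do not say which array holds which passage. Each group is 1 transfected line, so the line and its plasmid cannot be told apart. The spread behind each p-value and standard error is in part that between 2 arrays of a line. Passage and, in the MAX vector group, slide and scan are in it. The test (limma with eBayes) draws this spread towards a value common to all tested genes, so neither measures a gene's own replicate spread alone.

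All values come from total RNA on 4 one-colour Agilent arrays. A level is the log2 signal of a probe above the 75th percentile of its own array. It serves to compare arrays for 1 probe and not to rank probes. The share of probes well above background was 64.5% and 69.6% in the MAX vector arrays and 71.6% and 68.9% in the empty vector arrays. MAX vector replicate 2 and both empty vector arrays shared slide 1, while MAX vector replicate 1 was alone on slide 2, so that array and its slide cannot be told apart. None of the 4 arrays detected the rat Max probe above background, at -7.61 and -7.94 in the MAX vector arrays and -8.36 and -8.07 in the empty vector arrays, so it gives no check of the labels. Of 11 named chromaffin markers, 9 were well above background on all 4 arrays, with a summed level of 3.55 and 3.53 in the MAX vector and 4.34 and 4.35 in the empty vector arrays. Such a sum follows its brightest probe, here Ddc (2.95 and 2.94 in the MAX vector, 4.03 and 4.04 in the empty vector). Th, the first enzyme of catecholamine synthesis, lay the other way, at 0.17 and 0.080 in the MAX vector and -1.94 and -2.10 in the empty vector arrays. All 4 named fibroblast markers were also detected. Their summed level was 7.08 and 7.17 in the MAX vector and 6.99 and 7.14 in the empty vector arrays. Col3a1 carried this sum, at 7.07 and 7.16 in the MAX vector and 6.98 and 7.12 in the empty vector arrays. Lum was lower in the MAX vector arrays, at -0.96 and -0.33, against 0.37 and 0.72 in the empty vector arrays. Col1a2 was also lower. Dcn was higher, at -4.26 and -4.15 in the MAX vector and -4.83 and -5.08 in the empty vector arrays. Of the Schwann cell, macrophage and endothelial markers, 6 of 11 named genes were well above background on all 4. The summed levels were -1.13 and -0.79 in the MAX vector and -0.96 and -0.79 in the empty vector arrays for Schwann cell, and -0.53 and 0.24 in the MAX vector and -0.67 and -0.48 in the empty vector arrays for macrophage markers. The endothelial sum, carried by Kdr, was higher in the MAX vector arrays, at -3.71 and -3.18, against -5.24 and -5.16 in the empty vector arrays, while Pecam1 was not well above background on any array. The macrophage marker Lyz2 was also higher, at -4.83 and -4.85 in the MAX vector and -6.34 and -5.99 in the empty vector arrays. Cd68 overlapped between the groups, at -0.71 and 0.054 in the MAX vector and -0.89 and -0.63 in the empty vector arrays. So did Csf1r, at -4.68 and -3.30 in the MAX vector and -3.79 and -4.30 in the empty vector arrays. Aif1 was not well above background on any array. The part of these markers in the results was not tested.

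A ribosome needs its proteins in fixed and mostly equal numbers, and growing cells make them in step with ribosomal RNA. In vertebrates the mRNAs of these proteins begin with a run of pyrimidines, the terminal oligopyrimidine or TOP motif, through which mTOR signalling controls their translation. MYC, as a dimer with MAX, is known to raise ribosome production in many cell types. Many ribosomal protein genes have numerous processed copies in mammalian genomes.

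No ribosomal protein gene passed the test between the MAX vector and the empty vector cells, and the differences were small. The log2 fold changes ran from -0.10 for Rpl13a to 0.38 for Rpl32, with a median of 0.096 over the 63 genes and of -0.019 over all tested genes. In fold terms the extremes were 0.935 and 1.30. All 92 probes were well above background on all 4 arrays and none was saturated, so no member was lost to a filter on low values. With the brightest probe for each gene, which stands for the gene here, the levels lay between 2.12 and 8.83.

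In limma with Benjamini-Hochberg adjustment, 0 of 63 genes had an adjusted p under 0.05, against a background of 0.840% of all tested genes (0.576% higher and 0.264% lower in the MAX vector). At an unadjusted p under 0.05 there was 1 gene, Rpl32, which is 1.59% of the members against a background of 16.1% (7.93% higher and 8.21% lower in the MAX vector). The lowest adjusted p was 0.272, for Rpl32. The 95% intervals of all 63 genes lay within a 2-fold change in either direction, and those of 57 genes lay within 1.5-fold. The lowest bound was -0.42 (Rps26) and the highest 0.74 (Rplp0). The log2 fold changes had an SD of 0.097 among the members, and the median standard error of a single member was 0.11. These do not measure the same spread. The standard error also holds shifts that the members share on an array, and it is drawn towards the value common to all tested genes.

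The signs were uneven. The log2 fold change was above 0 for 52 of 63 genes (82.5%), compared with 46.5% of all tested genes. Both MAX vector arrays lay above both empty vector arrays for 22 genes (34.9%, background 24.2%), and below them for 2 genes (3.17%, background 26.0%). For the other 39 genes the groups overlapped. The large subunit had 31 of 36 genes above 0, a median of 0.10 and 16 genes (44.4%) without overlap on the high side. The small subunit had 21 of 27 genes above 0, a median of 0.061 and 6 such genes (22.2%), a share near the background of 24.2%. These counts describe the lists and were not tested.

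**Figure D1:**
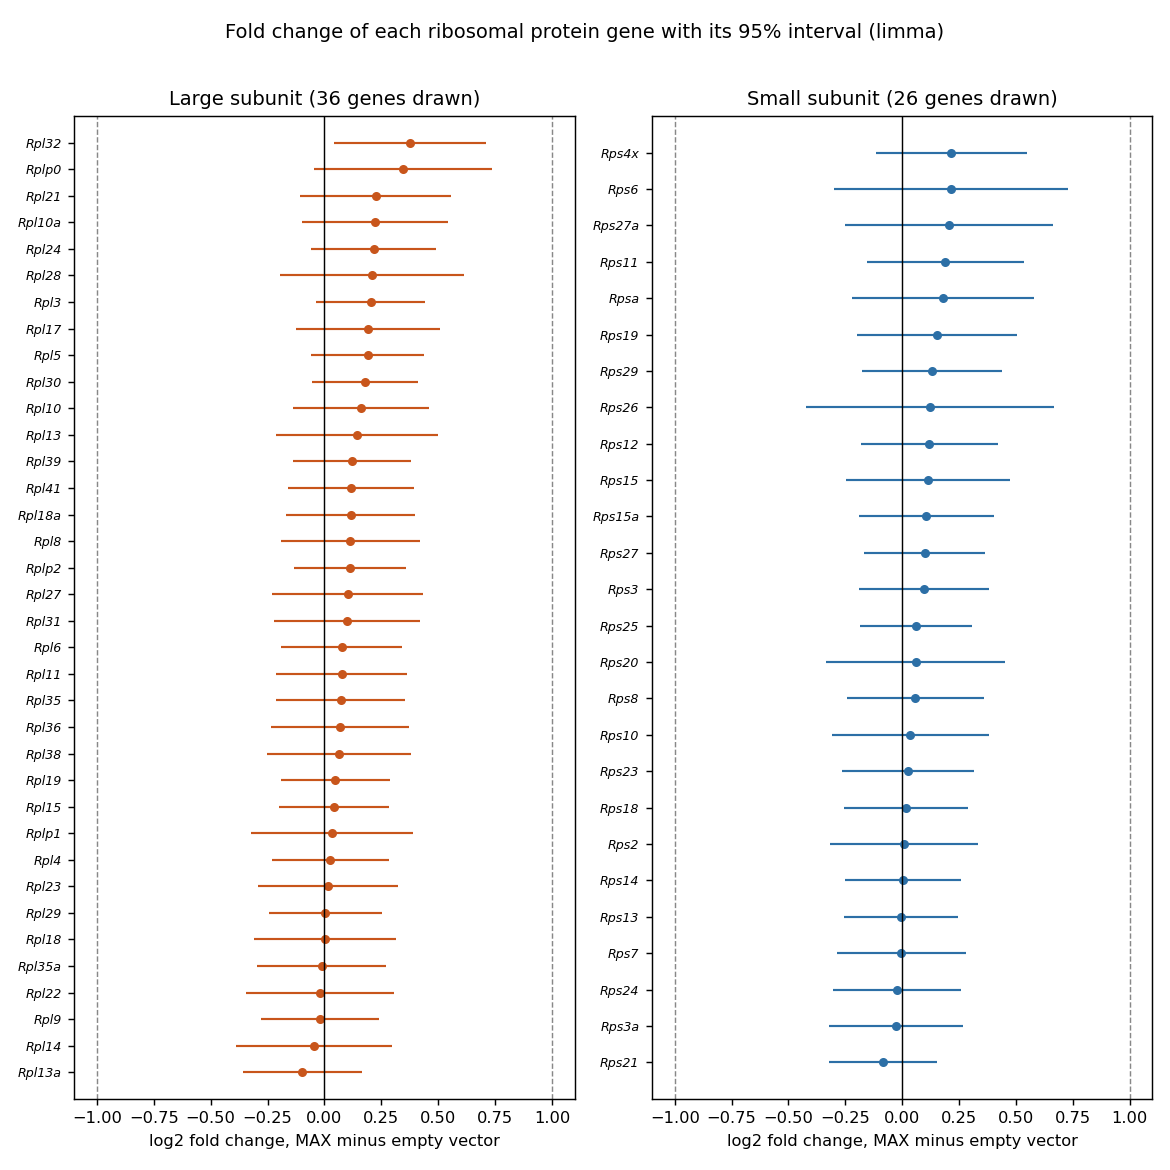
Log2 fold change of 62 of the 63 ribosomal protein genes (MAX vector minus empty vector, 2 arrays each), with the 95% interval from limma as a bar and dashed lines at a 2-fold change. No interval reaches a dashed line, and only that of Rpl32 leaves out 0.

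The common shift was mostly that of a single array. Relative to the mean of the empty vector arrays, the members had a median of 0.15 on MAX vector replicate 1, with 55 of 63 genes above 0, and of 0.017 on MAX vector replicate 2, with 40 of 63 above 0. Of all 25356 tested genes, 11519 were above 0 on MAX vector replicate 1 and 12989 on MAX vector replicate 2. MAX vector replicate 1 held the highest of the 4 values for 44 members and exceeded MAX vector replicate 2 for 53 members. Over all 25356 tested genes these counts were 6411 and 12137. The median difference between the MAX vector replicates was 0.13 in the members, larger than their median log2 fold change of 0.096, while over all tested genes it was -0.012. Empty vector replicate 1 held the lowest value for 37 members and for 6985 of all 25356 tested genes.

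Without MAX vector replicate 1 the median log2 fold change was 0.017 and 40 of 63 genes were above 0. The same values came from slide 1 alone, where MAX vector replicate 2 stands against both empty vector arrays. Without MAX vector replicate 2 the median was 0.15, and 55 genes were above 0. Quantile normalization of the arrays gave a median of 0.056, with 48 genes above 0. The median log2 fold change of 0.096 is a difference between means of 2 arrays. Between single arrays, replicate 1 minus replicate 2, the members had a median of 0.13 in the MAX vector and -0.043 in the empty vector. Whether the common shift exceeds the spread between replicates was not tested.

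**Figure D2:**
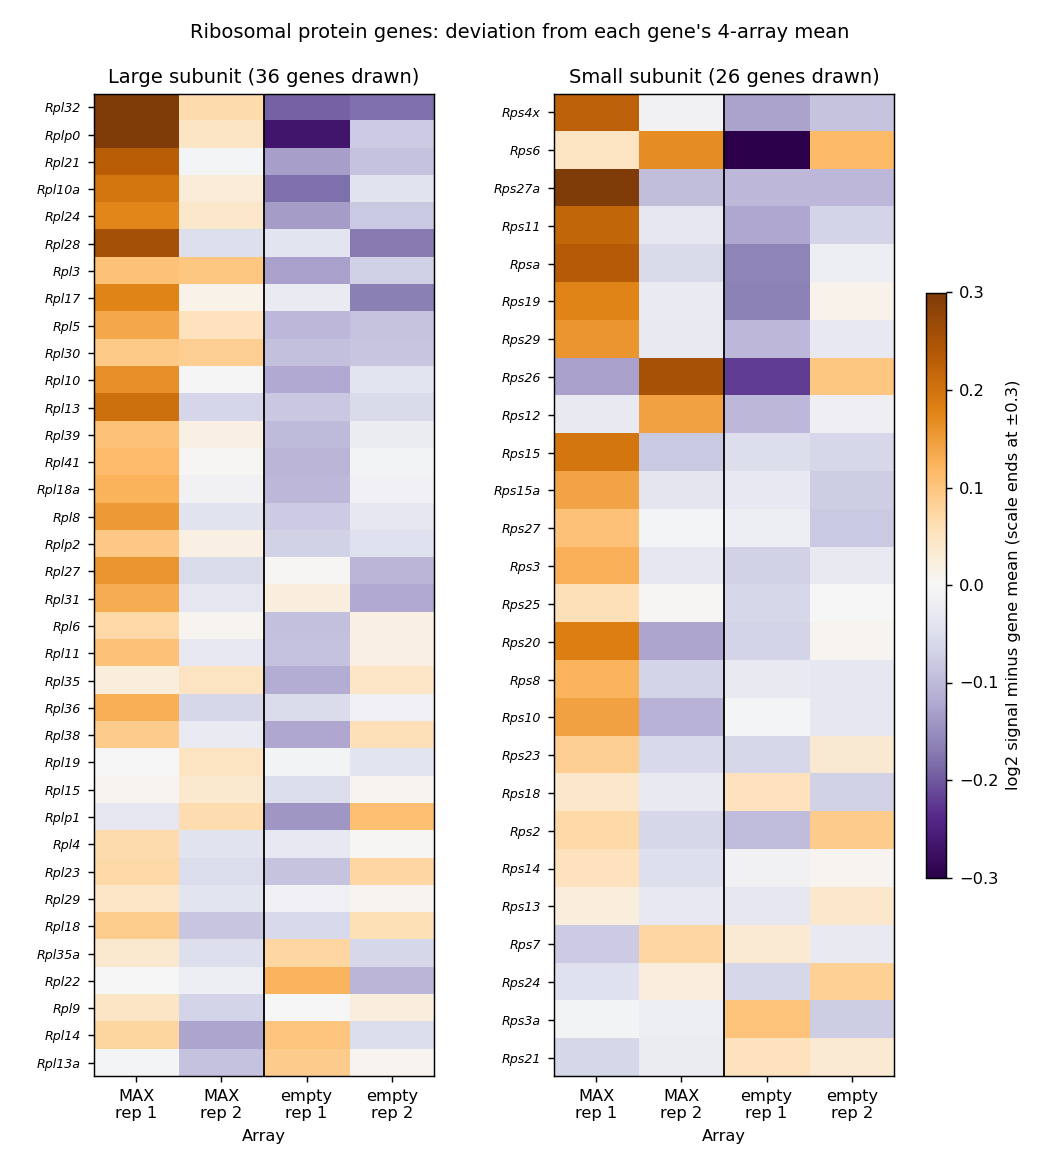
Heat map, for 62 of the 63 genes, of the level on each array minus the gene's own mean over the 4 arrays (log2, MAX vector arrays left, empty vector arrays right). Over all 63 genes, MAX vector replicate 1 lies above the genes' own means for 53, MAX vector replicate 2 for 22, empty vector replicate 1 for 11 and empty vector replicate 2 for 23.

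**Figure D3:**
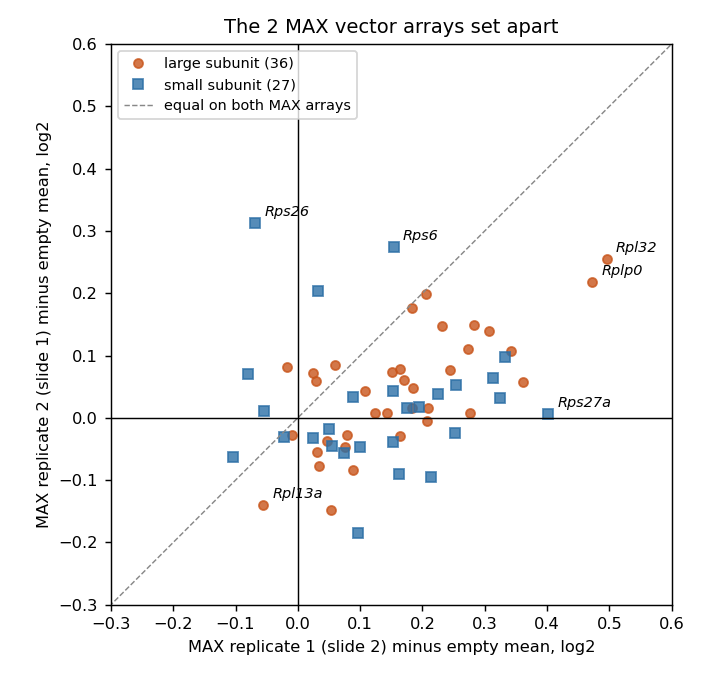
Each point is a ribosomal protein gene, placed by its level on MAX vector replicate 1 (horizontal axis) and on MAX vector replicate 2 (vertical axis), each minus the mean of the empty vector arrays on the log2 scale. The axes share this subtracted mean, and 53 of 63 genes have the higher value on replicate 1.

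The ribosomal stalk recruits the translation factors and is built of Rplp0, the scaffold, with the acidic proteins Rplp1 and Rplp2. Rplp0 levels were 5.26 and 5.01 in the MAX vector arrays, against 4.70 and 4.88 in the empty vector arrays. The groups did not overlap, and the fitted difference was 0.35 ± 0.14 (standard error), 1.27-fold, with a limma adjusted p of 0.352. It was 0.22 without MAX vector replicate 1 and 0.47 without MAX vector replicate 2. Rplp2 had 7.45 and 7.37 in the MAX vector and 7.28 and 7.31 in the empty vector arrays, a difference of 0.11 ± 0.088. Rplp1 had 8.68 and 8.78 against 8.58 and 8.83 in the empty vector arrays, with overlapping groups and a difference of 0.032 ± 0.13. Thus the stalk genes had differences of unlike size, none of which passed.

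Rpl5 and Rpl11 form, with the 5S ribosomal RNA, the particle that binds MDM2 when ribosome assembly is disturbed. Rpl5 had 6.16 and 6.08 in the MAX vector and 5.93 and 5.94 in the empty vector arrays, without overlap, and its difference was 0.19 ± 0.089. All 3 Rpl5 probes were higher in the MAX vector, by 0.13 to 0.24. Rpl11 had 7.64 and 7.50 in the MAX vector and 7.44 and 7.55 in the empty vector arrays. These overlapped, at a difference of 0.075 ± 0.10. Rpl23, another protein that binds MDM2, had 7.72 and 7.59 in the MAX vector and 7.56 and 7.72 in the empty vector arrays, and its difference was 0.015 ± 0.11.

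Among the other large subunit genes, Rpl32 had the highest log2 fold change of the 63 genes. Its levels were 7.79 and 7.55 in the MAX vector and 7.29 and 7.30 in the empty vector arrays. The gap between the groups, 0.38 ± 0.12, exceeded the gap between the MAX vector replicates, with an unadjusted p of 0.0357 and an adjusted p of 0.272 in limma. It was 0.26 without MAX vector replicate 1 and 0.50 without MAX vector replicate 2. Its 95% interval ran from 0.041 to 0.71. Rpl32, Rplp0 and Rpl13a are often used as reference genes in quantitative PCR, and they held the highest, the second highest and the lowest log2 fold change of the members.

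Rpl3, which lies near the peptidyl transferase centre, had 6.40 and 6.39 in the MAX vector and 6.16 and 6.22 in the empty vector arrays. Its replicates lay close together, and its difference was 0.20 ± 0.086 (limma adjusted p = 0.369). Rpl10, the late-joining protein needed for the subunit to become active, had 7.85 and 7.69 in the MAX vector and 7.57 and 7.65 in the empty vector arrays, a difference of 0.16 ± 0.11. The second Rpl10 probe gave 0.020, with overlapping groups. Rpl10a, the protein of the L1 stalk, had 6.11 and 5.94 in the MAX vector and 5.74 and 5.88 in the empty vector arrays, a difference of 0.22 ± 0.11. With the brightest probe for each gene, the groups did not overlap in any of these genes, and none passed.

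Rpl24, a protein at the interface between the subunits, had 7.54 and 7.41 in the MAX vector and 7.23 and 7.28 in the empty vector arrays, a difference of 0.22 ± 0.10. Rpl21 had 7.30 and 7.07 in the MAX vector and 6.94 and 6.98 in the empty vector arrays, a difference of 0.22 ± 0.12. It was the gene with the most probes, and all 5 were higher in the MAX vector, by 0.050 to 0.28. Rpl30 had the smallest standard error of the members. Its levels were 5.91 and 5.90 in the MAX vector and 5.72 and 5.73 in the empty vector arrays, at a difference of 0.18 ± 0.084. The SD between its replicates was 0.0052 in each group, so this standard error comes mostly from the value common to all tested genes.

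Rpl28 is the gene whose probes disagreed most. The brighter probe had 6.30 and 6.0 in the MAX vector and 6.01 and 5.88 in the empty vector arrays, a difference of 0.21 ± 0.14 with overlapping groups. The second probe had -2.32 and -2.36 in the MAX vector and -1.99 and -2.01 in the empty vector arrays. This is a difference of -0.34 ± 0.085, with an unadjusted p of 0.0165 and an adjusted p of 0.204 in limma. The mean of both probes gave -0.064, so no direction can be given for Rpl28. Which transcript each probe reads was not tested.

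The lower end of the large subunit held Rpl13a, Rpl14, Rpl9 and Rpl22. Rpl13a, known from human cells for silencing inflammatory mRNAs after its release from the ribosome, had 7.89 and 7.80 in the MAX vector and 7.99 and 7.90 in the empty vector arrays. The groups were separated by less than the gap within either group, and the difference was -0.10 ± 0.094 (95% interval -0.36 to 0.16). Rpl14 had 8.15 and 7.94 in the MAX vector and 8.17 and 8.02 in the empty vector arrays (difference -0.047 ± 0.12). Rpl9 had 7.20 and 7.09 in the MAX vector and 7.16 and 7.18 in the empty vector arrays (difference -0.021 ± 0.093). Rpl22, a protein known to be dispensable for translation in mice, had 4.61 and 4.59 in the MAX vector and 4.73 and 4.50 in the empty vector arrays, a difference of -0.019 ± 0.12. In the last 3 genes the groups overlapped, and the sign turned under other settings.

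In the small subunit, Rps6, the substrate of the S6 kinases, had 8.47 and 8.58 in the MAX vector and 8.09 and 8.53 in the empty vector arrays. A single low value, on empty vector replicate 1, carried its difference of 0.21 ± 0.18, which was -0.0080 without that array. Rps4x, encoded on the X chromosome, had 6.88 and 6.65 in the MAX vector and 6.53 and 6.57 in the empty vector arrays, without overlap, at a difference of 0.22 ± 0.12. Rps27a is made as a fusion to ubiquitin. It had 7.32 and 6.92 in the MAX vector and 6.91 and 6.91 in the empty vector arrays. Its difference of 0.20 ± 0.16 came from MAX vector replicate 1 and was 0.0063 without it.

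Rpsa, the ribosomal protein that is also known as the laminin receptor precursor, had 6.77 and 6.47 in the MAX vector and 6.37 and 6.51 in the empty vector arrays. Its groups overlapped at a difference of 0.18 ± 0.14, and its second probe gave -0.013. Rps19, the gene most often mutated in human Diamond-Blackfan anaemia, had 7.81 and 7.61 in the MAX vector and 7.47 and 7.64 in the empty vector arrays, a difference of 0.15 ± 0.13. Rps3, at the mRNA entry channel, had 7.73 and 7.57 in the MAX vector and 7.53 and 7.58 in the empty vector arrays, a difference of 0.096 ± 0.10. All 3 genes had their highest value on MAX vector replicate 1, and MAX vector replicate 2 lay within the empty vector range.

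Rps14, the gene whose loss underlies the anaemia of the human 5q- syndrome, had 7.13 and 7.03 in the MAX vector and 7.07 and 7.08 in the empty vector arrays, a difference of 0.0046 ± 0.091. Rps21 was the small subunit gene without overlap on the low side. It had 7.41 and 7.45 in the MAX vector and 7.53 and 7.50 in the empty vector arrays, a difference of -0.084 ± 0.085. Rps3a had 8.23 and 8.22 in the MAX vector and 8.34 and 8.16 in the empty vector arrays (difference -0.027 ± 0.10), and Rps24 had 7.73 and 7.79 in the MAX vector and 7.71 and 7.86 in the empty vector arrays (difference -0.022 ± 0.10). Of these 4 small subunit genes, only Rps21 had groups that did not overlap, and its 95% interval held 0.

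Of the 63 genes, 43 had 1 probe and 20 had several. Fitted singly, 78 of the 92 probes were above 0 and 14 below it, with a median of 0.095, and 0 passed. In limma, 3 probes had an unadjusted p under 0.05, those of Rpl32, Rpl28 (the second probe) and Rpl21, at 0.28. Of the 20 genes with several probes, 16 had only positive and 1 only negative differences, and 3 differed in sign (Rpl28, Rpl35a and Rpsa). The probes of a gene differed by a median of 0.11, and apart from Rpl28 by at most 0.23. The RefSeq table lists 883 ribosomal protein pseudogenes and 227 protein-coding copies, and all 63 members have at least 1 copy, so a probe may also read transcripts of copies. This was not tested.

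Related gene lists gave the following. Of 22 other TOP mRNAs listed, 16 were measured, with 14 above 0, a median of 0.058 and 0 calls. Rack1, a scaffold on the small subunit, had 6.49 and 6.43 in the MAX vector and 6.20 and 6.27 in the empty vector arrays, a difference of 0.23 ± 0.090 (limma adjusted p = 0.344). The elongation factor gene Eef2 followed at 0.21 ± 0.11, while Eef1d (-0.029) and Nap1l1 (-0.0037) had the lowest values. The 24 mitochondrial ribosomal protein genes, whose products build a separate ribosome, had 14 genes above 0, a median of 0.0057 and 0 calls. Mrpl2 (0.26) and Mrps33 (0.20) were at the top of that list, and Mrps22 (-0.23) and Mrpl49 (-0.18) at the bottom. There too MAX vector replicate 1 exceeded MAX vector replicate 2, for 21 of 24 genes with a median gap of 0.11.

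The genes that control TOP mRNAs and S6 phosphorylation had 4 of 11 measured members above 0, a median of -0.023 and 0 calls. Pdcd4, a translation inhibitor that S6 kinase marks for destruction, had 1.14 and 1.35 in the MAX vector and 0.81 and 0.97 in the empty vector arrays. Its difference was 0.35 ± 0.12, with an unadjusted p of 0.0484 and an adjusted p of 0.306 in limma. Eif4ebp1, the repressor of the cap-binding protein, had 6.24 and 6.07 in the MAX vector and 6.46 and 6.40 in the empty vector arrays, a difference of -0.27 ± 0.11 (limma adjusted p = 0.332). The cap-binding protein gene Eif4e had 3.57 and 3.61 in the MAX vector and 3.80 and 3.84 in the empty vector arrays, a difference of -0.23 ± 0.086, and Tsc1 stood at 0.094. None of the 3 larger differences passed, although their groups did not overlap.

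Of the transcription factors known at ribosomal protein promoters, 6 of 9 were measured, 2 were above 0, the median was -0.044 and 0 passed. Mycn had -4.10 and -4.44 in the MAX vector and -3.89 and -3.69 in the empty vector arrays. Its difference was -0.48 ± 0.16, with an unadjusted p of 0.0451 and an adjusted p of 0.299 in limma. Myc had 3.16 and 2.98 in the MAX vector and 3.22 and 2.95 in the empty vector arrays, a difference of -0.015 ± 0.15. Gabpb1 stood at -0.21, Sp1 at 0.11 and Yy1 at 0.027.

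**Figure D4:**
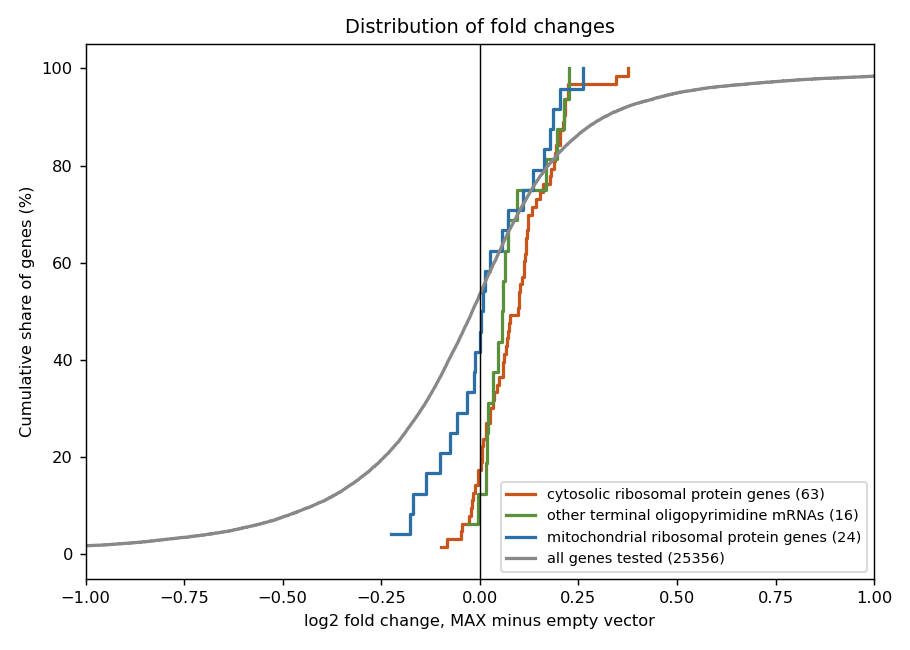
Cumulative share of genes (percent) by log2 fold change, MAX vector minus empty vector, for the cytosolic ribosomal protein genes, the mitochondrial ribosomal protein genes, the other TOP mRNAs and all tested genes. The cytosolic list lies in a narrow band between -0.10 and 0.38 with its median at 0.096, and all tested genes have their median at -0.019.

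Promoter sequences, from 250 bases before to 50 after the annotated start, were available from RefSeq, build GRCr8, for 51 of the 63 genes. The E-box CACGTG, the letters that MYC and MAX dimers are known to bind and which read the same on both strands, occurred in 4 of 51 promoters (7.84%), compared with 6.42% of all 33469 promoters. These 4 are shown because they are the members with such a match, the E-box in capitals, on the gene's own strand.
Rpl10a (chr20:6390380-6390425, plus strand): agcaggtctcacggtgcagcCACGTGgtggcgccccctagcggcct
Rpl13a (chr1:104749106-104749151, minus strand): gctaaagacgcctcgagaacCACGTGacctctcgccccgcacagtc
Rpl14 (chr8:129163434-129163479, plus strand): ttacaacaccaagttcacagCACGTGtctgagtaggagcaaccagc
Rps2 (chr10:14251836-14251867, plus strand): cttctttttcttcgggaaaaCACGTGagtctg
The E-box begins at position -133 of Rpl10a, -218 of Rpl13a, -166 of Rpl14 and 9 of Rps2 relative to the start. The log2 fold changes of these genes were 0.22, -0.10, -0.047 and 0.0084 in that order, so 2 were above and 2 below 0, with a median of -0.019. The 47 genes without the match had a median of 0.096, with 39 above 0. A match describes the letters and not a site in use.

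A run of pyrimidines at the start was common. A C at the annotated start followed by at least 4 C or T stood in 21 of 51 members (41.2%), compared with 2.63% of all promoters. Such a run began within 10 bases of the annotated start in 39 members (76.5%), compared with 28.9% of all promoters. The members shown have a run at the start and the 3 highest and 3 lowest log2 fold changes among those that do, with the run in capitals and its first base at the start site.
Rplp0 (chr12:46718371-46718415, minus strand): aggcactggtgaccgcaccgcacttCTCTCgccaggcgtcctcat
Rpl10a (chr20:6390508-6390552, plus strand): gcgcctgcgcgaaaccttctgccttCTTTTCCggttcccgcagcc
Rpl28 (chr1:78083513-78083557, minus strand): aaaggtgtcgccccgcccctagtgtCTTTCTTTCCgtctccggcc
Rpl9 (chr14:43247565-43247609, plus strand): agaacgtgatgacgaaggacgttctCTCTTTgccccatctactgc
Rps3a (chr2:173827023-173827067, minus strand): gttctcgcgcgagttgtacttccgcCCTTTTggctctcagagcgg
Rpl14 (chr8:129163595-129163639, plus strand): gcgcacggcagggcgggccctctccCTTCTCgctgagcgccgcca
Their log2 fold changes were 0.35, 0.22, 0.21, -0.021, -0.027 and -0.047 in that order. The value of Rpl28 is that of its brighter probe, and its second probe gave -0.34. The 21 genes with a run at the start had a median of 0.072, with 15 above 0, and the 30 without one had a median of 0.086, with 26 above 0. For a run that began within 10 bases of the start, the 39 genes with it had a median of 0.048, with 29 above 0, and the 12 without it had a median of 0.11, with all 12 above 0.

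The letters CCGGAAG, part of the known motif of GABP and other ETS factors, occurred on either strand in 16 of 51 members (31.4%) and 8.75% of all promoters. Those 16 genes had a median of 0.069 (14 above 0), and the other 35 had a median of 0.098 (27 above 0). AAGATGG, the core of the YY1 motif, occurred on either strand in 7 members (13.7%) and 7.01% of all promoters, with medians of 0.026 in those 7 (5 above 0) and 0.087 in the other 44 (36 above 0). The letters AAG end the first of these motifs and begin the second, so matches can overlap. The differences in median between members with and without a motif were not tested.

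**Figure D5:**
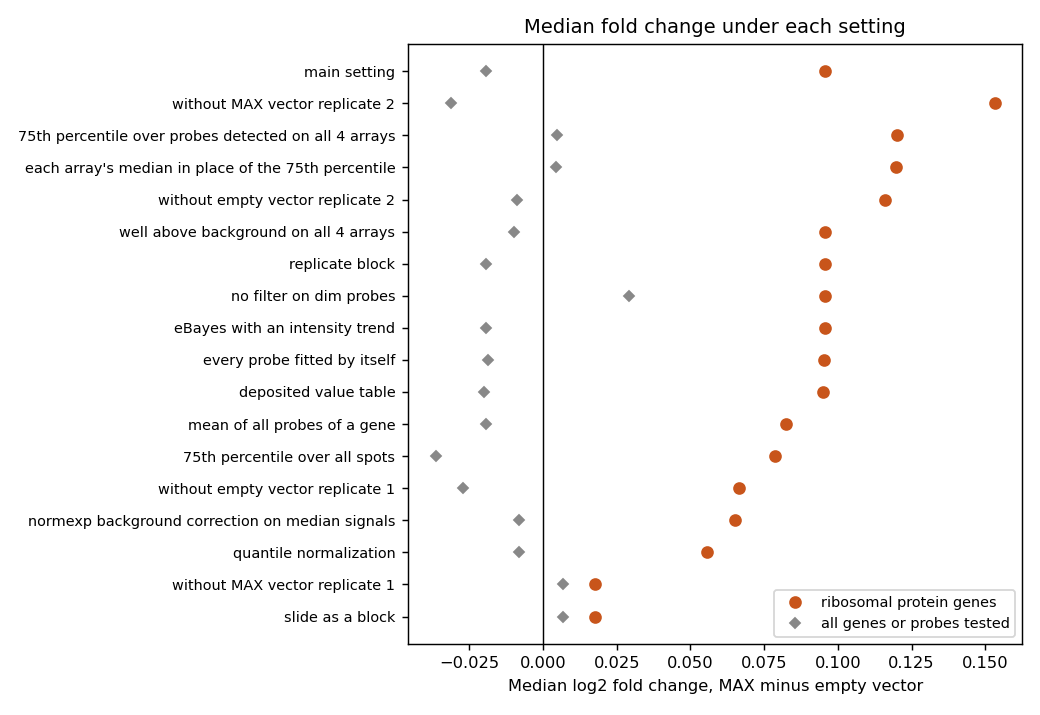
Median log2 fold change of the 63 ribosomal protein genes (MAX vector minus empty vector) under each processing setting; the row that fits every probe by itself is a median over the 92 probes. The main value is 0.096, and the values run from 0.017 without MAX vector replicate 1 to 0.15 without MAX vector replicate 2.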

How the data were processed

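The authors deposited Agilent Feature Extraction output (version 10.7.3.1, per the file headers; 10.7 per the submitters' processing notes), whose processed signal is a background-corrected intensity. The authors' deposited log2 value table has values shifted by a constant for each probe, whose baseline is unknown here (array medians -0.0052 and -0.0066 for the MAX vector, -0.033 and -0.011 for the empty vector). Its differences between arrays matched those used here, in direction too, up to a constant of at most 0.0057 for each pair of arrays, and it served as an alternative. From these intensities, outlier spots were dropped, spots of a probe averaged, log2 taken and each array's 75th percentile subtracted (signals 590.0 and 666.3 on the MAX vector and 700.5 and 611.4 on the empty vector arrays). Kept were probes that 2 or more of the 4 arrays detected well above background, with the brightest probe for each gene. limma 3.58.1 (R 4.3.3, lmFit and eBayes) compared 2 MAX vector with 2 empty vector arrays over 25356 genes, with Benjamini-Hochberg adjustment at 0.05. The test was also run on simulated data whose means and spread were taken from this fit. The number of arrays limits the precision.

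Genes were named through RefSeq accessions (26.2% of probes). Members and lists were chosen with earlier results of these data known. Genes described singly were members with an unadjusted p under 0.05, the 8 highest and 8 lowest log2 fold changes, members with known roles, genes with discordant probes, and the 2 highest and 2 lowest of each other list. Rpl30 was described singly for its small standard error, chosen after its values were seen. A further gene that the rule names is not reported here. Alternatives covered the scaling, background, filter, probe choice, slide, replicate block and each array left out.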

Additional observations from a re-analysis of the deposited data

How the results depend on the processing

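Across 17 alternatives, limma called 0 ribosomal protein genes in each, with between 0 and 6 members at an unadjusted p under 0.05. The lowest adjusted p of any member was 0.104 (Rpl32, eBayes with an intensity trend). The median log2 fold change was 0.017 with the slide as a block, and ranged from 0.017 to 0.15 with 1 array left out. Other values were 0.056 (quantile), 0.065 (normexp on median signals), 0.079 (percentile over all spots) and 0.12 (each array's median, or the percentile over detected probes). The number of members above 0 stayed between 40 and 58 of 63 in the 16 alternatives with 1 value per gene.

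Over all genes 213 were called, against 955 with an intensity trend, 781 with normexp, 541 with median scaling, 515 when probes had to be detected on all 4 arrays, and 8 with the slide as a block. There were 0 calls without a filter (4033 genes at an unadjusted p under 0.05) and 0 with the replicate block (3885). With 1 array left out there were 0 to 144 calls (1963 genes at an unadjusted p under 0.05 without empty vector replicate 1, and 2456 without empty vector replicate 2, both with 0 calls). The cause was not tested. Both arrays of number 2 were on slide 1, and the labels do not say whether arrays of the same number share a passage. Deviations of same-numbered arrays from their group means had a correlation of -0.018, which cannot settle whether they were paired. The replicate block left the members at 0 calls.

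Of 27 members described singly by the stated rule, 17 kept their sign under every alternative. With 1 array left out, the range was -0.15 to 0.054 for Rpl14, -0.13 to 0.095 for Rpl22, -0.066 to 0.096 for Rpl23, -0.077 to 0.035 for Rpl9, -0.093 to 0.16 for Rplp1, -0.045 to 0.055 for Rps14, -0.094 to 0.051 for Rps24, -0.12 to 0.062 for Rps3a and -0.0080 to 0.44 for Rps6. The percentile over detected probes gave 0.0055 for Rpl22, 0.0032 for Rpl9 and 0.0024 for Rps24, and median scaling gave 0.0051, 0.0028 and 0.0020 for them. Normexp gave 0.096 for Rpl22, -0.056 for Rps14, 0.043 for Rps24 and 0.039 for Rps3a. The slide block gave -0.046 for Rpl23, -0.045 for Rps14 and 0.011 for Rps24. The percentile over all spots gave -0.0025 for Rpl23 and -0.012 for Rps14, quantile normalization gave -0.039 for Rpl23, and the mean of probes gave -0.064 for Rpl28.

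The files hold no mean signal column, so the planned normexp correction of mean signals was not run and median signals took its place. This and the percentile over all spots were chosen after seeing the data. With 1 array left out of a group, the lone array is assumed to vary like the other group.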

Other observations

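Of 12 chaperones, importers and assembly partners of ribosomal proteins, 5 were measured, with 3 above 0, a median of 0.023 and 0 calls in limma. Rrs1, needed in yeast to bring the 5S particle into the large subunit, had 1.57 and 1.18 in the MAX vector and 1.41 and 1.15 in the empty vector arrays, a difference of 0.092 ± 0.19 (standard error). Grwd1, known in human cells and, as Rrb1, in yeast as a chaperone of Rpl3, stood at 0.086. The importin gene Kpnb1 had 1.15 and 0.82 in the MAX vector and 1.32 and 1.16 in the empty vector arrays, a difference of -0.25 ± 0.16, and Ltv1, an assembly factor of the small subunit, stood at -0.12. All 5 genes were higher on MAX vector replicate 1 than on MAX vector replicate 2.

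The 3 -like genes that the rule left out were Rpl37al2 (-0.32 ± 0.29), Rpl36al1 (-0.023 ± 0.093) and Rpl37l1 (0.049 ± 0.096), and 0 were called. In contrast to most members, all 3 had lower values on MAX vector replicate 1 than on MAX vector replicate 2.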
